A study of Homo sapiens with 27 samples.

Results

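The values described here are those of 9 genes of TGF-β signalling, read by gene name from a deposited RNA-seq table of 57165 genes. Of them, 4 encode ligands (TGFB1, TGFB2, TGFB3 and INHBA), 3 encode receptors (TGFBR1, TGFBR2 and TGFBR3), TGFBI encodes an extracellular matrix protein induced by the pathway and SMAD7 encodes its feedback inhibitor. They were chosen by name and not by a rule on their values, but with earlier results of these data known. All 9 passed the filter on low counts in each cell line. RNA was sequenced from SUM159 and MDA-MB-231, human triple-negative breast cancer (TNBC) cell lines of the mesenchymal type, in 9 groups of 3 libraries. In each line, wild type cells were not transduced. No gRNA cells carried a lentivirus for dCas9-KRAB, a Cas9 that cannot cut DNA fused to a repressor domain, but no guide RNA. The remaining cells carried the same lentivirus with guides to the ZEB1 promoter, in SUM159 either gRNA 4 alone or all 4 guides together (All gRNA). All transduced cells were selected with puromycin, at 1.25 µg/mL for SUM159 and 0.75 µg/mL for MDA-MB-231, and wild type cells were not. For 6 MDA-MB-231 libraries the sample titles and the column names give opposite guide conditions, so that 1 group of 3 is called set 1 (title gRNA 4, column the pool) and the other set 2 (title the pool, column gRNA 4), and neither is assigned to a guide. By the prefixes of the column names, SUM159 groups belong to run 1 and MDA-MB-231 groups to run 2, with 3 further SUM159 wild type libraries in run 2. Line and run therefore cannot be told apart for the transduced cells, and the labels do not say what a run was. The methods call the replicates individual clones and the labels call them biological replicates. P-values measure the spread between these libraries.

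TGF-β ligands are secreted in a latent form, and once released they bind the type II receptor TGFBR2, which recruits and phosphorylates the type I receptor TGFBR1. TGFBR1 then phosphorylates SMAD2 and SMAD3, which enter the nucleus with SMAD4 and act on target genes. In breast carcinoma cells this pathway is known as an inducer of epithelial-to-mesenchymal transition, and ZEB1, the transcription factor silenced in this study, is among the factors known to carry that transition out.

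Libraries held about 15461200 to 21473800 estimated counts. Levels are given as CPM (counts scaled by library size) after TMM scaling. ZEB1, the targeted gene, was measured at 75.7 to 83.6 CPM in SUM159 wild type cells of run 1, 76.9 to 79.8 in those of run 2, 70.4 to 77.3 in No gRNA, 2.56 to 4.54 in gRNA 4 and 0.374 to 1.02 in All gRNA. The MDA-MB-231 libraries held 65.3 to 73.7 CPM in wild type cells, 104.1 to 121.7 in No gRNA, 4.77 to 5.78 in set 1 and 3.75 to 5.48 in set 2. Every targeted library was thus below every control library of its line. Markers of the epithelial state summed to 0.129 to 6.47 CPM over the SUM159 libraries and 257.5 to 862.4 over those of MDA-MB-231, and mesenchymal markers to 2307 to 4467 and 1328 to 2585 CPM. The oestrogen and progesterone receptor genes ESR1 and PGR were at the floor of 3 counts in SUM159, and with ERBB2 they summed to 38.1 to 64.6 CPM there and 40.3 to 73.0 in MDA-MB-231. Endothelial markers summed to 0.603 to 7.94 CPM in SUM159 and 0.571 to 4.34 in MDA-MB-231. In a culture, less RNA per cell and fewer cells that express a gene cannot be told apart.

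INHBA was higher than in No gRNA in both targeted sets of MDA-MB-231, by 3.49-fold in set 1 and 1.28-fold in set 2. In SUM159 the clearest differences from No gRNA were a fall of TGFBI and a smaller rise of TGFBR2, seen with gRNA 4 and with All gRNA. Against wild type cells the sign of the TGFBR2 difference in SUM159 was the opposite, whereas those of INHBA in MDA-MB-231 and of TGFBI in SUM159 were the same, and the values of both controls are given throughout. The plot of the levels by library shows every value.

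**Figure D1:**
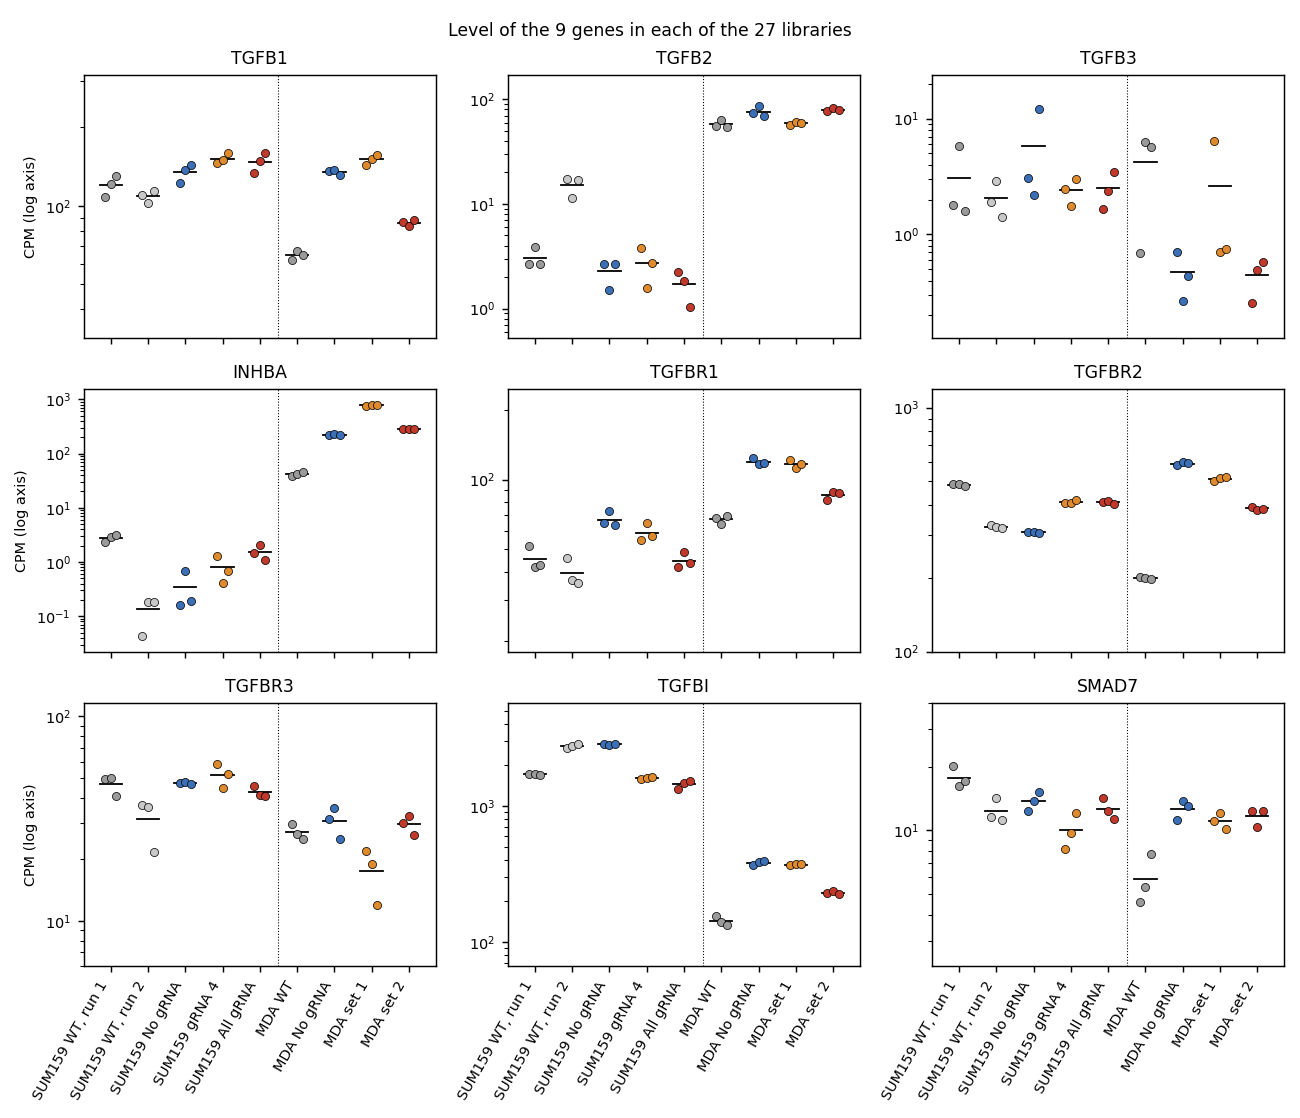
Level of each of the 9 genes in CPM (log axis, a scale of its own in each panel) in the 9 groups, where each point is 1 library and each bar is the mean of the 3 libraries of a group. The dotted line separates SUM159 from MDA-MB-231 (MDA), and WT is wild type. INHBA is the gene with the widest range, from 0.0434 to 788.0 CPM, and the points of TGFBR2 lie closest together within groups.

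INHBA encodes the βA subunit of activin A, a ligand that signals through activin receptors and the same SMAD2 and SMAD3. It spans chr7:41667168-41705834 (GRCh38, minus strand, GENCODE v44), and its exons overlap those of INHBA-AS1 on the opposite strand. As the strandedness of the counting is not given in the sources used here, reads of these genes cannot be told apart. The promoter window of INHBA, from 250 bases before to 50 bases after a RefSeq start site, is shown because this gene had the largest called difference. It lies at chr7:41703041-41703340 (GRCh38.p14, minus strand), with a CAGACA match in capitals whose first base is 28 from the start site.
INHBA promoter: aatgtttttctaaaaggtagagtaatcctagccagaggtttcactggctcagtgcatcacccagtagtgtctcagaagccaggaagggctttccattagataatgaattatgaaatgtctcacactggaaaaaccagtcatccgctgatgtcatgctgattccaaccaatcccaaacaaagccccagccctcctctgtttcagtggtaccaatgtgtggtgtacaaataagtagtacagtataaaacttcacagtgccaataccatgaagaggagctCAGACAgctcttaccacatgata

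In MDA-MB-231, INHBA stood at 39.0, 41.4 and 46.2 CPM in wild type cells, 215.4, 232.8 and 215.2 in No gRNA, 751.5, 779.0 and 788.0 in set 1 and 278.1, 287.0 and 280.3 in set 2. These 4 groups did not overlap, and set 1 was highest. Compared with No gRNA, the log2 fold change (log2FC) of INHBA was 1.80 in set 1 (standard error, SE, 0.0399, TREAT adjusted p = 1.91e-07) and 0.36 in set 2 (SE 0.0461, moderated adjusted p = 5.26e-05, TREAT adjusted p = 1). TREAT tests whether a change is larger than 1 on the log2 scale, a gene past it at an adjusted p under 0.05 is termed called, and the moderated test of the same voom-limma fit asks whether a change differs from 0. Set 2 was below set 1 by a log2FC of -1.44 (SE 0.0384, TREAT adjusted p = 1.36e-05). No gRNA cells were themselves 5.02-fold above wild type cells (log2FC 2.33, SE 0.0700, TREAT adjusted p = 2.17e-07). Against wild type, the log2FC was therefore 4.13 in set 1 and 2.69 in set 2 (TREAT adjusted p = 4.40e-11 and 5.57e-08).

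In SUM159 the same gene was near the limit of detection. It was measured at 2.30, 2.90 and 3.08 CPM in wild type cells of run 1, 0.164, 0.687 and 0.192 in No gRNA, 1.31, 0.403 and 0.686 in gRNA 4 and 1.46, 2.10 and 1.07 in All gRNA, the No gRNA values resting on 2.88, 11.5 and 3.42 counts. The All gRNA libraries were above all No gRNA libraries and below all wild type libraries, and those of gRNA 4 overlapped No gRNA. The log2FC of All gRNA against No gRNA was 2.29 (SE 0.554, moderated adjusted p = 0.0210, TREAT adjusted p = 1), and against wild type it was -0.88 (moderated adjusted p = 0.0506). The moderated call against No gRNA was lost without No gRNA replicate 1 (log2FC 1.95, adjusted p = 0.0947), No gRNA replicate 3 (2.04, adjusted p = 0.0952) or All gRNA replicate 2 (2.05, adjusted p = 0.0619). For gRNA 4 the log2FC was 1.27 against No gRNA (SE 0.603, moderated adjusted p = 0.219) and -1.90 against wild type (moderated adjusted p = 0.00288). No gRNA was below wild type of run 1 by a log2FC of -3.17 (SE 0.524, TREAT adjusted p = 0.0498), and this call was lost when any 1 of the 6 libraries was left out (TREAT adjusted p from 0.0691 to 0.297). In wild type cells of run 2 all 3 libraries had at most 2.91 counts, at or under the floor of 3 counts per library, which makes INHBA at least 14.4-fold lower there than in wild type cells of run 1 and at least 219.6-fold lower than in MDA-MB-231 wild type cells of the same run.

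TGFB1, the most studied TGF-β ligand, spans chr19:41301587-41353922 on the minus strand and shares exonic bases with HNRNPUL1 on the other strand. Its values in MDA-MB-231 were 62.1, 67.3 and 64.6 CPM in wild type cells, 136.1, 137.0 and 131.7 in No gRNA, 143.9, 151.2 and 156.8 in set 1 and 86.8, 83.4 and 87.9 in set 2. Set 2 lay between wild type and No gRNA, with no overlap of the 4 groups. The log2FC from No gRNA was -0.64 in set 2 (SE 0.0481, moderated adjusted p = 6.40e-07) and 0.15 in set 1 (SE 0.0433, moderated adjusted p = 0.0155), and neither was called by TREAT. The set 1 call was lost without No gRNA replicate 3 (adjusted p = 0.0524), without set 1 replicate 3 (adjusted p = 0.0555), with only the libraries of these groups in the fit (adjusted p = 0.0588) and with library totals in place of TMM (log2FC 0.07, adjusted p = 0.215). In SUM159, TGFB1 ranged from 108.4 to 130.4 CPM in wild type cells of run 1, 102.2 to 114.4 in run 2, 122.3 to 143.6 in No gRNA, 145.4 to 159.0 in gRNA 4 and 133.4 to 159.4 in All gRNA. It did not pass either test against No gRNA (moderated adjusted p = 0.245 for gRNA 4 and 0.361 for All gRNA), but it passed the moderated test against wild type cells, with log2FC values of 0.32 and 0.29 (adjusted p = 0.00825 and 0.0142).

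TGFB2 encodes a second isoform of the ligand, which needs TGFBR3 for efficient binding to TGFBR2. It was at 54.8 to 63.3 CPM in MDA-MB-231 wild type cells, 69.6 to 86.3 in No gRNA, 57.2 to 60.5 in set 1 and 76.7 to 81.8 in set 2. Set 1 was below No gRNA by a log2FC of -0.37 (SE 0.0870, moderated adjusted p = 0.00604), whereas set 2 overlapped No gRNA (0.06, moderated adjusted p = 0.558). SUM159 had far less TGFB2, at 1.04 to 3.87 CPM in all 12 libraries of run 1, and no targeted group passed a test against No gRNA (moderated adjusted p = 0.538 for All gRNA and 0.802 for gRNA 4). Wild type SUM159 cells of run 2 had 17.2, 11.4 and 17.1 CPM, against 2.67, 3.87 and 2.69 in run 1. That difference between runs of the same line was called (log2FC 2.29, SE 0.253, TREAT adjusted p = 0.0146). It was not called without run 1 replicate 1 (2.19, TREAT adjusted p = 0.0732) or run 1 replicate 3 (2.20, TREAT adjusted p = 0.0625). TGFB2 shares exonic bases with TGFB2-AS1 and TGFB2-OT1.

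TGFB3, the third isoform, had the largest standard errors of the 9 genes against No gRNA. Estimated counts of 11.5, 108 and 103 stood side by side in MDA-MB-231 wild type cells, and 103, 11.9 and 11.7 in set 1, while No gRNA had 12.4, 4.88 and 7.98 and set 2 had 4.32, 8.48 and 9.06. The high values fell in libraries of several groups, in SUM159 also in wild type replicate 2 of run 1 (120 counts) and No gRNA replicate 3 (214 counts). The standard errors were 0.641 to 1.64 on the log2 scale, and no comparison between the groups passed the moderated test with all libraries. In MDA-MB-231, DESeq2 passed TGFB3 in set 1 against No gRNA (adjusted p = 0.0249), a group in which 1 of 3 libraries was high. TGFB3 also passed by edgeR and DESeq2 in No gRNA against wild type (adjusted p = 0.0157 and 0.00158) and in set 2 against set 1 (adjusted p = 0.0485 and 0.0135). It overlaps TGFB3-AS1 on the opposite strand.

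Among the receptors, TGFBR2 had the tightest replicates and the clearest differences. This gene encodes the type II receptor that binds the ligand. It lies at chr3:30606601-30694142 on the plus strand, and of its promoter windows the one with a motif match is shown, at chr3:30606351-30606650 (GRCh38.p14, plus strand). The capitals mark a match to TGACTCA, read here from the other strand, with its first base at -6 from the start site.
TGFBR2 promoter: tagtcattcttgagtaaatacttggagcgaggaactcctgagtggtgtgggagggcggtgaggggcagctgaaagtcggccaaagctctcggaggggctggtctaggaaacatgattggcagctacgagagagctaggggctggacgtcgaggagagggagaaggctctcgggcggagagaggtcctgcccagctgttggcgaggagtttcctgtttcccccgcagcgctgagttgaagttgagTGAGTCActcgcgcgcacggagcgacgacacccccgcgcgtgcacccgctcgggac

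In SUM159, TGFBR2 was measured at 308.2, 309.8 and 304.9 CPM in No gRNA, 404.5, 407.5 and 416.8 in gRNA 4, 411.2, 412.3 and 402.6 in All gRNA and 484.6, 486.8 and 479.0 in wild type cells of run 1. The guide groups overlapped each other and lay between the controls, without overlap with either. Against No gRNA, TGFBR2 was higher by a log2FC of 0.41 in gRNA 4 (SE 0.0340, moderated adjusted p = 1.31e-05) and 0.41 in All gRNA (SE 0.0339, moderated adjusted p = 1.08e-05). Against wild type cells of run 1 it was lower in both, at -0.26 and -0.25 (moderated adjusted p = 5.10e-05 and 6.13e-05). The wild type cells of run 2 had 328.7, 324.9 and 319.8 CPM, closer to No gRNA than to the wild type cells of run 1.

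In MDA-MB-231 the direction from No gRNA was the opposite. TGFBR2 was at 202.0, 199.8 and 199.0 CPM in wild type cells, 580.5, 597.9 and 590.1 in No gRNA, 501.7, 512.7 and 520.2 in set 1 and 392.7, 382.0 and 383.0 in set 2. Both targeted sets lay between the controls here too. They were below No gRNA, by a log2FC of -0.21 in set 1 (SE 0.0242, moderated adjusted p = 4.69e-05) and -0.60 in set 2 (SE 0.0256, moderated adjusted p = 6.35e-09), and above wild type, by 1.29 in set 1 (TREAT adjusted p = 2.70e-05) and 0.89 in set 2 (moderated adjusted p = 4.73e-09, TREAT adjusted p = 1). No gRNA cells had 2.82-fold the level of wild type cells (log2FC 1.498, SE 0.0295, TREAT adjusted p = 5.31e-07).

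TGFBR1, the type I receptor kinase, was at 64.9, 72.9 and 63.3 CPM in SUM159 No gRNA, 54.7, 64.8 and 57.0 in gRNA 4, 41.7, 48.4 and 43.7 in All gRNA and 51.5, 41.9 and 42.7 in wild type cells of run 1. All gRNA was below No gRNA in every library and overlapped wild type. The log2FC of All gRNA against No gRNA was -0.58 (SE 0.101, moderated adjusted p = 0.00321), and that of gRNA 4 was -0.20 (SE 0.0974, moderated adjusted p = 0.241). In MDA-MB-231 TGFBR1 was at 116.5 to 124.0 CPM in No gRNA, 111.8 to 121.7 in set 1, 81.8 to 88.1 in set 2 and 64.2 to 69.3 in wild type cells. Set 2 was lower than No gRNA (log2FC -0.47, SE 0.0507, moderated adjusted p = 1.27e-05) and set 1 overlapped it (-0.04, moderated adjusted p = 0.586).

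TGFBR3, also called betaglycan, is a co-receptor without kinase activity that presents the ligand. It was lower in MDA-MB-231 set 1, with 21.9, 18.9 and 11.997 CPM, than in No gRNA, with 31.6, 35.5 and 25.0 CPM (log2FC -0.83, SE 0.198, moderated adjusted p = 0.00660). Set 2, at 26.2 to 32.4 CPM, overlapped No gRNA (-0.03, moderated adjusted p = 0.897). MDA-MB-231 wild type cells had 25.1 to 29.8 CPM, and set 1 was below them as well (log2FC -0.72, moderated adjusted p = 0.00905). In the 12 SUM159 libraries of run 1 it ranged from 40.5 to 58.3 CPM and did not pass a test in either guide group (moderated adjusted p = 0.454 and 0.569).

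TGFBI, named for its induction by TGF-β, encodes a secreted adhesion protein of the extracellular matrix and was the most abundant of the 9 genes in SUM159. It lies at chr5:136028988-136063818 on the plus strand. Its promoter window at chr5:136028738-136029037 (GRCh38.p14, plus strand) held none of the motifs searched and is printed for comparison with those of INHBA and TGFBR2.
TGFBI promoter: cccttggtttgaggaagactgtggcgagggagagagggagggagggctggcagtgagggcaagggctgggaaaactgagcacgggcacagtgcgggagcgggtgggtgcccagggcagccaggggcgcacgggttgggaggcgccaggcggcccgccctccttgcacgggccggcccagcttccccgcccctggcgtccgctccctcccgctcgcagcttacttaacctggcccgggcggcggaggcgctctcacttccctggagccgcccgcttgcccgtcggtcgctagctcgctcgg

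In SUM159, TGFBI stood at 2890, 2810 and 2853 CPM in No gRNA, 1587, 1613 and 1646 in gRNA 4, 1340, 1485 and 1530 in All gRNA, 1722, 1726 and 1702 in wild type cells of run 1 and 2683, 2760 and 2892 in wild type cells of run 2. The guide groups were below both controls of their run, and the wild type cells of run 2 overlapped No gRNA. Against No gRNA, the level was 0.510-fold in All gRNA (log2FC -0.97, SE 0.0403, moderated adjusted p = 8.13e-08) and 0.564-fold in gRNA 4 (-0.83, SE 0.0400, moderated adjusted p = 1.33e-07). Against wild type cells of run 1 the differences were smaller, at -0.25 in All gRNA (moderated adjusted p = 0.000431) and -0.11 in gRNA 4 (moderated adjusted p = 0.0538). Neither passed TREAT against either control.

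In MDA-MB-231 TGFBI was at 155.4, 139.5 and 132.7 CPM in wild type cells, 367.6, 385.5 and 392.5 in No gRNA, 368.0, 373.3 and 373.1 in set 1 and 230.5, 236.1 and 227.2 in set 2. Set 1 overlapped No gRNA and set 2 lay between the controls. The log2FC against No gRNA was -0.04 in set 1 (SE 0.0420, moderated adjusted p = 0.460) and -0.71 in set 2 (SE 0.0460, moderated adjusted p = 1.84e-07). Both sets were above wild type, by 1.32 in set 1 (TREAT adjusted p = 0.000759) and 0.65 in set 2 (moderated adjusted p = 4.19e-06). Set 1 passed the moderated test against No gRNA once library totals replaced TMM (log2FC -0.13, adjusted p = 0.0405).

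SMAD7 encodes an inhibitory SMAD that binds the activated type I receptor and is itself induced by TGF-β. It was at 12.3, 13.8 and 15.2 CPM in SUM159 No gRNA, 8.17, 9.76 and 12.1 in gRNA 4 and 14.2, 12.3 and 11.3 in All gRNA, against 16.1 to 20.03 in wild type cells of run 1. Libraries of gRNA 4 were below those of No gRNA by a narrow margin, and All gRNA overlapped No gRNA. The log2FC was -0.48 in gRNA 4 (SE 0.161, moderated adjusted p = 0.0820, or 0.0485 without gRNA 4 replicate 3) and -0.13 in All gRNA (moderated adjusted p = 0.665). Against wild type cells of run 1 both passed the moderated test, at -0.86 and -0.50 (adjusted p = 0.000724 and 0.0127). The wild type cells of run 2 had 11.1 to 14.2 CPM, overlapping both guide groups. They were below those of run 1 by a log2FC of -0.53 (moderated adjusted p = 0.0118). In MDA-MB-231 SMAD7 was at 11.2 to 13.7 CPM in No gRNA, 10.1 to 12.1 in set 1 and 10.4 to 12.4 in set 2, with moderated adjusted p = 0.371 and 0.596, and at 4.57 to 7.75 CPM in wild type cells.

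Across the 9 genes, the comparison of All gRNA with No gRNA in SUM159 gave 0 called by TREAT (1 with an unadjusted p under 0.05, INHBA), where 0.396% of all genes tested were called. The moderated test passed 2 of 9 as higher (INHBA and TGFBR2) against 5.93% of all genes, and 2 as lower (TGFBR1 and TGFBI) against 4.89%, and edgeR and DESeq2 each passed 4. With gRNA 4 TREAT called 0 (0 with an unadjusted p under 0.05) against 0.39% of all genes, and the moderated test passed TGFBR2 as higher, against 6.11%, and TGFBI as lower, against 4.91%, with edgeR and DESeq2 each passing 2. In MDA-MB-231 set 1 TREAT called 1 of 9 (INHBA) against 1.47%, and the moderated test passed 2 as higher (TGFB1 and INHBA) against 20.4% and 3 as lower (TGFB2, TGFBR2 and TGFBR3) against 17.3%, with edgeR passing 5 and DESeq2 6. Set 2 had 0 called (0 with an unadjusted p under 0.05) against 4.14%, with 1 higher by the moderated test (INHBA) against 27.3% and 4 lower (TGFB1, TGFBR1, TGFBR2 and TGFBI) against 25.1%, and edgeR and DESeq2 each passed 5. The median log2FC of the 9 genes was -0.15, 0.12, -0.04 and -0.10 in these 4 comparisons, beside 0.00, 0.00, -0.01 and -0.01 over all genes tested. As the comparisons of a line share their No gRNA libraries, their values are not independent of each other.

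**Figure D2:**
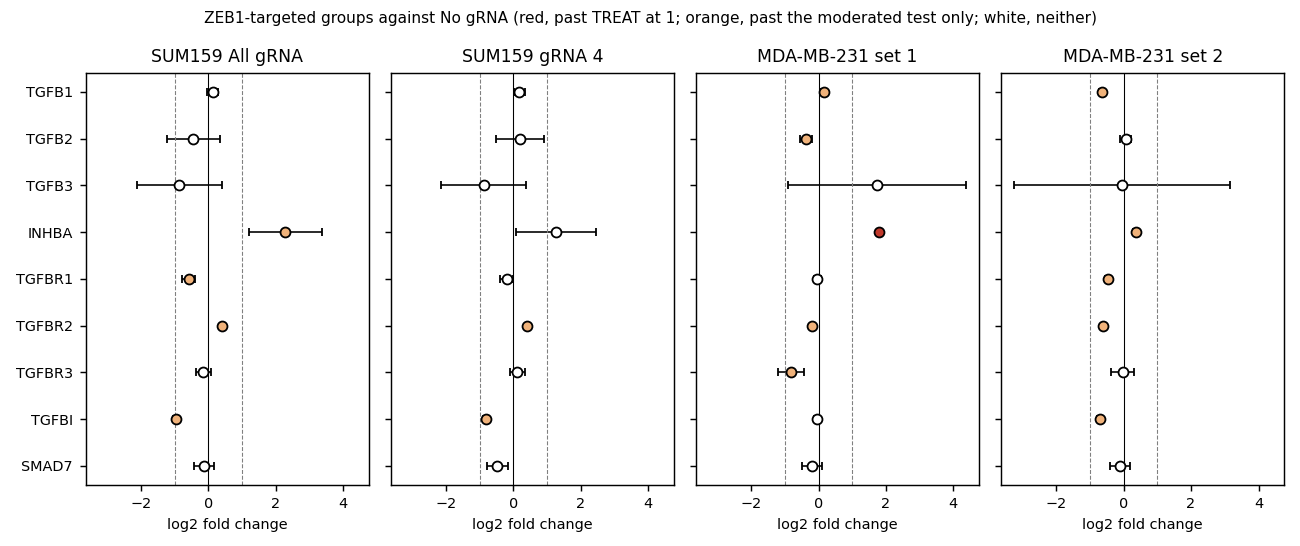
Log2FC of each of the 9 genes in the 4 ZEB1-targeted groups against No gRNA of the same line, with bars of 1.96 SE. Dashed lines mark a change of 1 in either direction. INHBA in set 1 is past TREAT (1.80), TGFBI is lower in both SUM159 groups (-0.97 and -0.83), TGFBR2 is higher in SUM159 and lower in MDA-MB-231, and the bars of TGFB3 are the widest.

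The No gRNA and wild type controls differed in several of the 9 genes. In SUM159 TREAT called 1 of 9 (INHBA), where 1.53% of all genes were called, and the moderated test passed 4 of 9 against 42.9% of all genes: TGFBR1 and TGFBI were higher in No gRNA (log2FC values 0.55 and 0.72) and INHBA and TGFBR2 lower (-3.17 and -0.66). In MDA-MB-231 TREAT called INHBA, TGFBR2 and TGFBI, all higher in No gRNA, against 3.6% of all genes. The moderated test passed 7 of 9 there, against 53.8%, and the 7 were all higher, among them TGFB1 (log2FC 1.00) and SMAD7 (1.05). Transduction, puromycin and dCas9-KRAB are shared by No gRNA and the targeted groups, and their parts in these differences cannot be told apart. With wild type as the control, TREAT called 0 of 9 in All gRNA (0 with an unadjusted p under 0.05) against 2.3% of all genes, 0 in gRNA 4 (1 with an unadjusted p under 0.05, INHBA) against 2.46%, 3 in set 1 (INHBA, TGFBR2 and TGFBI) against 8.42% and 1 in set 2 (INHBA) against 1.44%. The moderated test against wild type passed 4 of 9 in All gRNA against 48.7% of all genes, 5 in gRNA 4 against 46.8%, 7 in set 1 against 59.5% and 7 in set 2 against 36.3%. The sign of TGFBR2 changed with the control in all 4 groups.

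**Figure D3:**
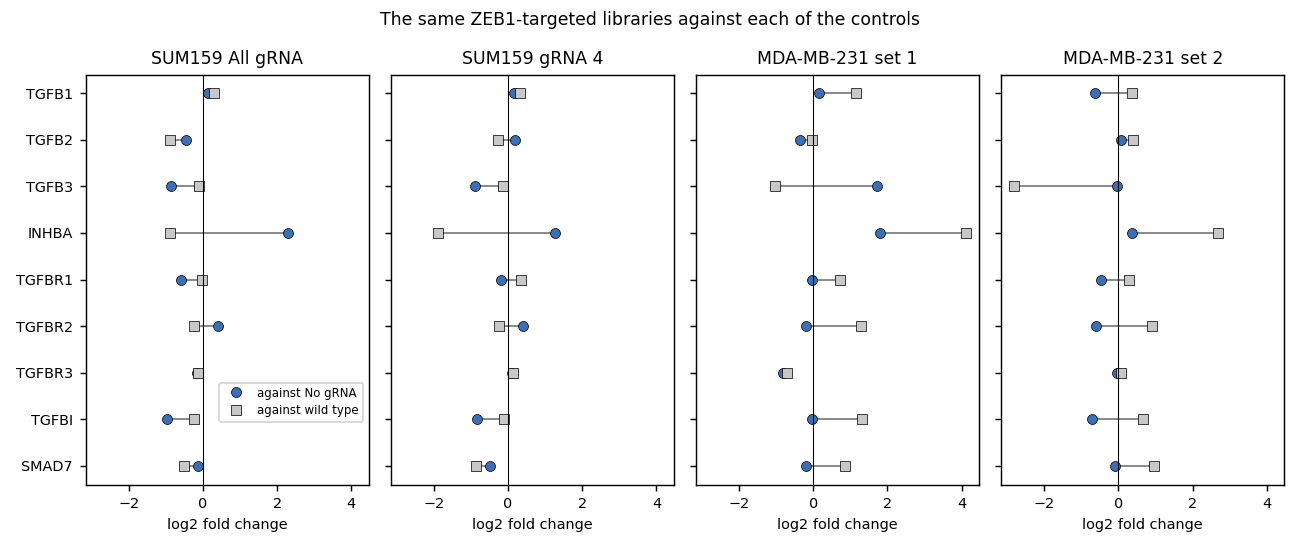
Log2FC of the same ZEB1-targeted libraries against No gRNA (blue circles) and against wild type of the same line (grey squares, run 1 for SUM159), joined by a line for each gene. TGFBR2 crosses 0 in all 4 panels, INHBA crosses 0 in both SUM159 panels (2.29 to -0.88 and 1.27 to -1.90), and it stays above 0 in both MDA-MB-231 panels.

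A further test pooled the 6 targeted libraries of a line against its 6 control libraries of the same run (No gRNA and wild type) by mean log2 CPM. In this two-sided exact permutation test the smallest p possible is 0.00216, and p-values were adjusted over the 18 pairs of a gene and a line. TGFBI in SUM159 (difference -0.54) and INHBA in MDA-MB-231 (difference 2.26) each had the smallest p, an adjusted p of 0.0195. In both, all 6 targeted libraries lay on the same side of all 6 control libraries. TGFB1 was higher (0.23, exact permutation adjusted p = 0.0487) and SMAD7 lower (-0.48, exact permutation adjusted p = 0.0487) in targeted SUM159 cells. Against No gRNA alone, neither gene passed the moderated test in either guide group. Wild type SUM159 cells of run 2, which were not in this test, had 11.1 to 14.2 CPM of SMAD7, overlapping both guide groups. The wild type libraries among the controls were neither transduced nor selected, so these differences mix the guides with transduction and puromycin. The TGFB1 call was lost with library totals in place of TMM (0.19, exact permutation adjusted p = 0.0779). The other 14 pairs did not pass, TGFBR2 among them (exact permutation adjusted p = 0.829 in SUM159 and 0.655 in MDA-MB-231). The pooled groups differ within themselves, which this test does not take into account. It was run on the 9 genes only, so no share of all genes stands beside these calls.

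The guide groups of a line were also compared with each other. In SUM159, All gRNA and gRNA 4 gave 0 called of the 9 genes (0 with an unadjusted p under 0.05), where TREAT called 0% and the moderated test 0.944% of all genes. The moderated test and edgeR passed 0 of 9 and DESeq2 passed 1, TGFBR1, which was lower in All gRNA (log2FC -0.39 in each fit, moderated adjusted p = 0.139, DESeq2 adjusted p = 0.0197). For TGFBR2 the difference was 0.01 with a SE of 0.0329. In MDA-MB-231, set 2 against set 1 gave 1 called (INHBA) against 3.07% of all genes, and the moderated test passed 7 of 9 against 51.5%. Of these 7, TGFB2 (0.43) and TGFBR3 (0.79) were higher in set 2, and TGFB1 (-0.80), INHBA (-1.44), TGFBR1 (-0.43), TGFBR2 (-0.40) and TGFBI (-0.67) were lower. Since the guides of the sets are in doubt, these differences cannot be tied to a guide.

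Run and cell line were checked in wild type cells alone. Between run 2 and run 1 of SUM159 wild type cells, TREAT called TGFB2 and INHBA, against 6.65% of all genes. The moderated test passed 6 of 9, against 62.1%. Among them TGFBI was higher in run 2 (log2FC 0.69), and TGFBR2 (-0.58), TGFBR3 (-0.61) and SMAD7 (-0.53) were lower. Within run 2, SUM159 against MDA-MB-231 wild type cells gave 3 of 9 called against 29.1% of all genes, and 7 past the moderated test against 75.5%. TGFBI was 19.4-fold higher in SUM159 (log2FC 4.28, SE 0.0843, TREAT adjusted p = 3.18e-07) and TGFB2 was lower (-1.95, SE 0.156, TREAT adjusted p = 0.00140), with INHBA at the floor as given above. TGFB1 (0.74), TGFBR2 (0.69) and SMAD7 (1.06) were higher in SUM159 and TGFBR1 (-0.79) was lower by the moderated test.

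The effect of the guides was compared between the lines as the mean of the targeted groups minus No gRNA, MDA-MB-231 minus SUM159. TREAT called 0 of 9 for this difference (0 with an unadjusted p under 0.05) against 0.954% of all genes, and the moderated test passed 3 of 9 against 25.4%, as did edgeR and DESeq2. For TGFBR2 the effect was 0.41 in SUM159 and -0.43 in MDA-MB-231, a difference of -0.84 (SE 0.0303, moderated adjusted p = 5.03e-14). Against wild type its sign was reversed in each line. For TGFB1 the effect was 0.15 in SUM159 and -0.26 in MDA-MB-231 (difference -0.42, SE 0.0848, moderated adjusted p = 0.000929). The MDA-MB-231 value is a mean of sets that went opposite ways, 0.15 in set 1 and -0.64 in set 2, and neither SUM159 guide group passed a test for TGFB1 by itself. For TGFBI it was negative in both lines, -0.90 in SUM159 and -0.40 in MDA-MB-231 (difference 0.50, SE 0.0556, moderated adjusted p = 1.18e-06), and here too the sets differed, with -0.04 in set 1 and -0.71 in set 2. The effect on INHBA was 1.78 in SUM159 and 1.06 in MDA-MB-231, and its difference did not pass (-0.72, SE 0.466, moderated adjusted p = 0.291).

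The levels of the 9 genes can be set beside each other only per length, here as CPM per kb of the canonical transcript. TGFBI was first in all 9 groups, with 1051 CPM per kb in SUM159 No gRNA and 140.8 in MDA-MB-231 No gRNA. In SUM159 TGFBR2 (67.9 in No gRNA) and TGFB1 (48.3) came next, and INHBA was last in every group (0.0575 in No gRNA). In MDA-MB-231 INHBA moved up with the conditions, from the sixth place in wild type cells (6.98 CPM per kb) to the fourth in No gRNA (36.6), the third in set 2 (46.6) and the second in set 1 (127.8). In set 2 the ranges of TGFBI (85.3) and TGFBR2 (85.2) overlapped. Ordered by group, the ranges of TGFBR2 overlapped only between gRNA 4 and All gRNA of SUM159 among neighbouring groups, whereas those of SMAD7 overlapped from the second to the eighth of its 9 groups.

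The promoters of the 9 genes gave 20 RefSeq windows of 300 bases. CACCTG, the E-box letters that ZEB1 is known to bind, was searched on both strands and occurred in 4 windows of 2 genes (TGFBR1 and SMAD7), while 20.6% of 35116 promoters hold it. CAGACA, a form of the SMAD box, occurred in 4 windows, of TGFB2, INHBA and TGFBR1, and is in 16.9% of promoters. TGACTCA, the AP-1 motif, occurred in the TGFBR2 window printed above and is in 4.95% of promoters. GTCTAGAC, the palindromic SMAD motif, occurred in 0 windows and is in 0.202% of promoters. A match describes these letters only.

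Of 77 other genes of the pathway, 61 were tested in SUM159 and 68 in MDA-MB-231. Their list was chosen with earlier results of these data known. In SUM159 TREAT called 1 in All gRNA and 1 in gRNA 4, SPARC in each case, where 0.396% and 0.39% of all genes were called. The moderated test passed 15 (7 higher, 8 lower) against 10.8% of all genes and 14 (6 higher, 8 lower) against 11% of all genes. In MDA-MB-231 set 1 had 8 called (6 higher, 2 lower) against 1.47% of all genes and 43 past the moderated test against 37.8%. Set 2 had 10 called (4 higher, 6 lower) against 4.14% of all genes and 46 past the moderated test against 52.4%. The median log2FC of the tested genes was 0.01 in All gRNA, -0.02 in gRNA 4, 0.17 in set 1 and -0.22 in set 2.

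**Figure D4:**
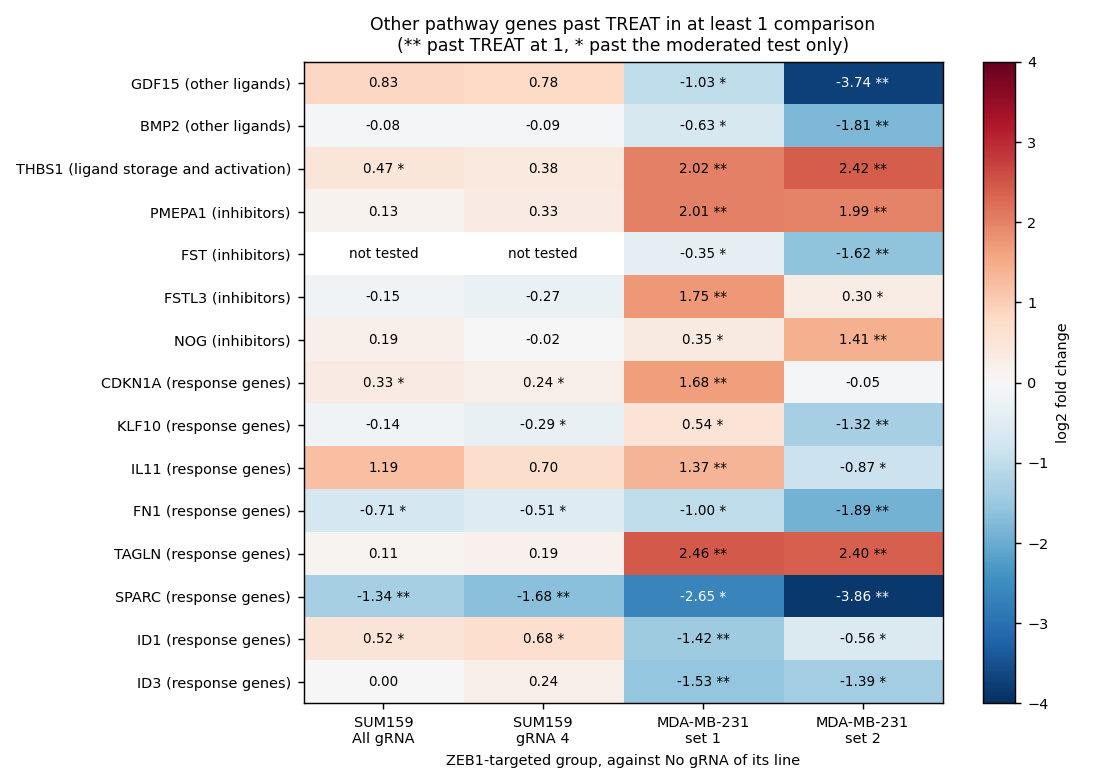
Log2FC against No gRNA of the 15 other pathway genes that passed TREAT in at least 1 of the 4 ZEB1-targeted groups, in rows by role and in columns by group. Red is higher and blue lower than No gRNA. THBS1, PMEPA1 and TAGLN are past TREAT as higher in both MDA-MB-231 sets (1.99 to 2.46), and SPARC is past it as lower in 3 of the 4 groups.

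SPARC, a matrix glycoprotein, was the response gene that was called in SUM159 with either set of guides, at 226.1, 235.8 and 246.7 CPM in No gRNA, 71.7, 84.5 and 67.7 in gRNA 4 and 92.1, 92.0 and 94.7 in All gRNA. The log2FC was -1.68 in gRNA 4 (TREAT adjusted p = 0.000351) and -1.34 in All gRNA (TREAT adjusted p = 0.0474), and it was also called against wild type cells in each (-1.75 and -1.41). In MDA-MB-231 SPARC was at 0.0485 to 4.61 CPM in the transduced groups, with a call in set 2 (-3.86, TREAT adjusted p = 0.0451), where the highest library had 5.33 counts.

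Among genes of ligand storage and activation, TREAT called 1 of 11 tested in each MDA-MB-231 set, against 1.47% of all genes in set 1 and 4.14% in set 2. In SUM159 it called 0 of 8 in each guide group, against 0.396% in All gRNA and 0.39% in gRNA 4. The unadjusted p was under 0.05 for 0 in All gRNA and 1 in gRNA 4. The moderated test passed 2 in each, against 10.8% and 11% of all genes. In MDA-MB-231 it passed 5 of 11 in set 1 against 37.8% and 6 of 11 in set 2 against 52.4%. The called gene was THBS1, which encodes thrombospondin 1, an activator of latent TGF-β. It was at 350.0, 457.4 and 383.2 CPM in No gRNA, 1663, 1589 and 1559 in set 1 and 2118, 2051 and 2114 in set 2 (log2FC values 2.02 and 2.42, TREAT adjusted p = 7.44e-06 and 1.72e-07). In these sets it was also above wild type (1.53 and 1.93), and THBS1 was the only other pathway gene called for the difference between the lines (1.77, SE 0.146, TREAT adjusted p = 0.00349).

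Of the inhibitors, 15 were tested in MDA-MB-231, and TREAT called 2 in set 1 against 1.47% of all genes and 3 in set 2 against 4.14%. The moderated test passed 12 of 15 in set 1 against 37.8% and 10 of 15 in set 2 against 52.4%. PMEPA1, which encodes a membrane protein that sequesters SMADs and is induced by TGF-β, was higher in set 1 and set 2 (2.01 and 1.99, TREAT adjusted p = 5.58e-06 and 3.03e-06) and against wild type as well (2.84 and 2.82). FSTL3, which binds and neutralises activin, rose in set 1 (1.75, TREAT adjusted p = 7.59e-05) and had 0.30 in set 2. FST, which encodes the activin antagonist follistatin, was below No gRNA in set 2 (-1.62, TREAT adjusted p = 0.000131) and had -0.35 in set 1. Its level was 125.4 to 137.6 CPM in wild type cells and 240.1 to 273.6 in No gRNA. In set 1 FST was at 194.1 to 212.3 CPM, above wild type, and in set 2 at 78.0 to 90.5, below it. It was under the filter in SUM159, where the 12 libraries of run 1 held at most 0.0383 CPM. NOG, which encodes the BMP antagonist noggin, was called as higher in set 2 (1.41, TREAT adjusted p = 0.00541). In SUM159 TREAT called 0 of 14 inhibitors in each guide group (0 with an unadjusted p under 0.05), against 0.396% and 0.39% of all genes. The moderated test passed 1 in All gRNA against 10.8% of all genes and 2 in gRNA 4 against 11%.

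Of the 23 response genes 20 were tested in each line. In SUM159 TREAT called 1 in each guide group (SPARC), against 0.396% of all genes in All gRNA and 0.39% in gRNA 4. The moderated test passed 10 of 20 in each guide group (4 higher, 6 lower), against 10.8% and 11%. In MDA-MB-231 it passed 17 of 20 in set 1 against 37.8% and 18 of 20 in set 2 against 52.4%. In set 1, where 1.47% of all genes were called, TREAT called 5, with CDKN1A (1.68), IL11 (1.37) and TAGLN (2.46) higher and ID1 (-1.42) and ID3 (-1.53) lower. CDKN1A encodes a cell cycle inhibitor, IL11 a cytokine, TAGLN an actin-binding protein, and ID1 and ID3 are targets of BMP signalling. In set 2, where 4.14% of all genes were called, TREAT called 4, with TAGLN higher (2.40) and KLF10 (-1.32), FN1 (-1.89) and SPARC lower. FN1, which encodes fibronectin, was lower than No gRNA in all 4 comparisons by the moderated test. Its log2FC was -0.71 in All gRNA, -0.51 in gRNA 4, -1.002 in set 1 and -1.89 in set 2. Against wild type, however, it was higher in set 1 (1.55) and set 2 (0.67). In SUM159 wild type cells of run 1 it was at 1521 to 1617 CPM. That range overlapped gRNA 4 (1482 to 1679) and lay above All gRNA (1317 to 1485). IL11 and KLF10 moved in opposite directions in the sets, with -0.87 and -1.32 in set 2 and 1.37 and 0.54 in set 1. They differed between the sets by TREAT (-2.24, adjusted p = 8.90e-08, and -1.86, adjusted p = 3.14e-08). KLF10 was at 103.0 to 108.6 CPM in wild type cells and 207.1 to 214.6 in No gRNA, with 303.4 to 315.4 in set 1 and 82.5 to 84.9 in set 2.

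Other ligands were few. Of 8 listed, 3 were tested in SUM159 and 5 in MDA-MB-231. In SUM159 TREAT called 0 in either guide group (0 with an unadjusted p under 0.05), against 0.396% and 0.39% of all genes. The moderated test passed 0 there, against 10.8% and 11%. In set 1 TREAT called 0 of the 5 (0 with an unadjusted p under 0.05), against 1.47% of all genes. In set 2 it called 2 against 4.14%, GDF15 and BMP2, as lower (-3.74 and -1.81, TREAT adjusted p = 2.77e-05 and 0.00450). Both stood far above wild type in No gRNA, GDF15 with 54.7 to 75.0 CPM against 5.12 to 6.62 and BMP2 with 10.6 to 12.3 against 2.27 to 2.40. In set 2 GDF15 was at 4.00 to 5.74 CPM, overlapping wild type, and BMP2 at 3.08 to 3.42. The moderated test passed 5 of the 5 ligands in set 1 (2 higher, 3 lower) against 37.8% of all genes. It passed 4 in set 2 (2 higher, 2 lower) against 52.4%. Of the other receptors 9 were tested in SUM159 and 10 in MDA-MB-231. TREAT called 0 receptors and 0 SMAD transducers in any of the 4 comparisons. The shares of all genes were 0.396% in All gRNA, 0.39% in gRNA 4, 1.47% in set 1 and 4.14% in set 2. In each MDA-MB-231 set 1 receptor had an unadjusted p under 0.05. The moderated test passed 1 of 9 receptors in All gRNA against 10.8% and 0 in gRNA 4 against 11%. It passed 3 of 10 in set 1 against 37.8% and 5 of 10 in set 2 against 52.4%. By the moderated test, of the SMAD transducers 1 of 7 passed in All gRNA against 10.8% of all genes, 0 in gRNA 4 against 11%, 1 in set 1 against 37.8% and 3 in set 2 against 52.4%.

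For each of the 9 genes the 2 genes with the most similar pattern over the 9 group means were looked up among 13774 genes, by Pearson's correlation of log2 CPM, a description over groups that share line, run and controls. For INHBA these were DOCK9 and LRRC8A (0.996 and 0.993), for TGFBI SYNPO and WASF1 (0.993 and 0.989), for TGFB2 ASAH1 and ZNF707 (0.997 and 0.993) and for TGFB1 LTBP3 and OGA (0.985 and 0.976). For the receptors they were RTN2 and CNTD1 with TGFBR1 (0.971 and 0.970), APBB2 and RELB with TGFBR2 (0.943 and 0.939) and NT5DC1 and PYM1 with TGFBR3 (0.980 and 0.977), and for SMAD7 HNRNPUL2 and KAT6A (0.933 and 0.918). LTBP3, which encodes a latent TGF-β binding protein, is the only one of these on the list of pathway genes. For TGFB3 the values were 0.922 and 0.896, with genes that the annotation gives by identifier only.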

How the data were processed

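RNA of 27 cultures was sequenced as 50 bp single-end reads. The authors quantified transcripts with Salmon against GRCh38 and summed them to genes with tximport, and deposited 1 table of estimated counts, scaled by transcript length, for 57165 genes. The Salmon version, the annotation and the strandedness are not given in the sources used here. Such counts cannot separate overlapping genes with certainty. Counts were not rounded for voom and were rounded for edgeR and DESeq2.

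Of the gene identifiers 56347 matched GENCODE v44. For each line, 12 libraries (4 groups of the same run) were filtered (filterByExpr, minimum count 10), scaled by TMM and fitted with voom and limma 3.58.1 in R 4.3.3. The main test was TREAT, which the study used with voom and limma, and its threshold, a log2 fold change of 1, was chosen here, and the moderated test against 0 stands beside it. P-values were adjusted by Benjamini-Hochberg over 15147 genes in SUM159 and 15721 in MDA-MB-231, at a threshold of 0.05. Wild type groups were compared between runs and between lines in fits of their own, and the difference between lines in a fit over 24 libraries. The permutation test used log2 CPM with a prior count of 2, and fold bounds used a floor of 3 counts per library. Alternatives with edgeR 4.0.16, DESeq2 1.42.0, other scalings, filters, controls and libraries left out are given in the closing section. The scripts were tested on simulated data.

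Replicates of a group differed by more than sampling noise (chi-square per degree of freedom 7.47 to 17.4). Other pathway genes are named where TREAT called them in at least 1 of the 4 comparisons of targeted cells with No gRNA. The genes, lists and tests were chosen with earlier results of these data known.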

Additional observations from a re-analysis of the deposited data

Results flagged for a closer look

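The effect of the guides against No gRNA differed between the lines by the interaction test for 3 genes. The difference, MDA-MB-231 minus SUM159 on the log2 scale, was -0.84 for TGFBR2 (moderated adjusted p = 5.03e-14), -0.42 for TGFB1 (moderated adjusted p = 0.000929) and 0.50 for TGFBI (moderated adjusted p = 1.18e-06), in a limma fit over the libraries of both lines. The MDA-MB-231 effect is the mean of sets that differed, at 0.15 in set 1 and -0.64 in set 2 for TGFB1, -0.04 and -0.71 for TGFBI, and -0.21 and -0.60 for TGFBR2. Effects on TGFBR2 were opposite in sign, with all targeted libraries above No gRNA in SUM159 and below it in MDA-MB-231. The sign depended on the control. Against wild type, TGFBR2 was at -0.25 in All gRNA, -0.26 in gRNA 4, 1.29 in set 1 and 0.89 in set 2. No gRNA itself was below wild type in SUM159 (-0.66) and above it in MDA-MB-231 (1.498). Line and run cannot be told apart in these libraries, and the part of the run was not tested.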

How the results depend on the processing

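INHBA in SUM159 rested on few counts, which limits its precision, and each group had 3 libraries. Tests against 0 by limma, edgeR and DESeq2 passed more of the 9 genes than TREAT, with 4, 4 and 4 in All gRNA against No gRNA, 2, 2 and 2 in gRNA 4, 5, 5 and 6 in set 1, 5, 5 and 5 in set 2, 4, 4 and 4 in SUM159 No gRNA against wild type, 7, 8 and 8 in that of MDA-MB-231, 7, 8 and 8 in set 2 against set 1, 6, 6 and 6 between runs, 7, 7 and 7 between wild type lines and 3, 3 and 3 for the difference between lines. In All gRNA against gRNA 4 DESeq2 passed 1, where the moderated test and edgeR passed 0. These tests ask for a smaller change than TREAT does. By the moderated test 10.8% of all genes passed in All gRNA, 11% in gRNA 4, 37.8% in set 1 and 52.4% in set 2. For No gRNA against wild type it was 42.9% in SUM159 and 53.8% in MDA-MB-231, and for set 2 against set 1 51.5%. The shares were 62.1% between runs, 75.5% between wild type lines and 25.4% for the difference between lines. All gRNA against gRNA 4 had 0.944%. Shares for edgeR and DESeq2 were not computed.

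With wild type as the control TREAT called 3 genes in set 1 and 1 in set 2, and the moderated test passed 4 in All gRNA, 5 in gRNA 4, 7 in set 1 and 7 in set 2, where 48.7%, 46.8%, 59.5% and 36.3% of all genes passed. Signs then changed for INHBA (-0.88) and TGFBR2 (-0.25) in All gRNA, and for TGFB2 (-0.26), INHBA (-1.90), TGFBR1 (0.36) and TGFBR2 (-0.26) in gRNA 4. In set 1 they changed for TGFB3 (-1.03), TGFBR1 (0.73), TGFBR2 (1.29), TGFBI (1.32) and SMAD7 (0.86), and in set 2 for TGFB1 (0.36), TGFBR1 (0.30), TGFBR2 (0.89), TGFBR3 (0.074), TGFBI (0.65) and SMAD7 (0.95).

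The INHBA call between SUM159 No gRNA and wild type gave a count of 0 with library totals, with no filter, with only the groups compared in the fit, and under a minimum count of 50, which removes the gene. It was also 0 to 0 with any library left out. Between runs the count was 1 under the minimum count of 50 and 1 to 2 with a library left out. The permutation test passed 0 to 0 pairs with a replicate number left out, where the smallest p possible is larger.

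Replicate numbers did not pair the libraries, since 1 of 18 correlations of same-numbered deviations in SUM159 (-0.17 to 0.11) and 0 of 18 in MDA-MB-231 (-0.04 to 0.05) was over 0.1. With the replicate block the TREAT count for SUM159 No gRNA against wild type was 0 (INHBA, adjusted p = 0.101), and the moderated test newly passed TGFB1 there (adjusted p = 0.0356), TGFBR1 between runs (adjusted p = 0.0411) and TGFBR3 for the difference between lines (adjusted p = 0.0311). The block changed no other call.

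Small values changed sign. With DESeq2, TGFBR3 in SUM159 No gRNA against wild type was -0.000471. With library totals, TGFB2 in set 2 was -0.000258 and in the pooled MDA-MB-231 comparison -0.041, and the pooled SUM159 call of TGFB1 was lost (0.19, exact permutation adjusted p = 0.0779). With a library left out, TGFBR3 ranged from -0.093 to 0.055 in SUM159 No gRNA against wild type, from -0.17 to 0.10 in set 2 and from -0.000743 to 0.25 in MDA-MB-231 No gRNA against wild type. TGFB2 ranged from -0.10 to 0.53 in gRNA 4, from -0.00174 to 0.17 in set 2 and from -0.22 to 0.21 for the difference between lines. TGFB3 ranged from -0.23 to 0.28 in All gRNA against gRNA 4, from -0.36 to 0.29 in set 2 and from -0.70 to 0.21 between runs, and TGFB1 from -0.094 to 0.032 in All gRNA against gRNA 4. In the pooled comparison with a replicate number left out, INHBA in SUM159 ranged from -0.28 to 0.42, TGFBR3 in SUM159 from -0.0596 to 0.0791 and TGFB2 in MDA-MB-231 from -0.017 to 0.1. The cause of these changes was not tested. The counts under the moderated test were an alternative chosen after seeing the data.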
